A study of Mus musculus with 4 samples.

Results

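Macrophage genes were followed in colon tumours that AOM/DSS (azoxymethane, a carcinogen, with dextran sulfate sodium, which inflames the colon) had raised in mice. The set was named by symbol and holds 10 genes: Lyz2, Csf1r, C1qa, C1qb, C1qc, Adgre1, Cd68, Mrc1, Trem2 and Cd14. Of these, 7 were matched in the table of 14979 genes, and all 7 passed the filter on low counts that left 14331 genes to be tested. The C1q chains C1qa, C1qb and C1qc are not analysed here, so complement is described through the proteases, receptors and inhibitors that act with C1q.

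Tumours from the anti-MAdCAM-1 group were set against tumours from the IgG control group, with 2 mice per group, 1 library per mouse and AOM/DSS in both groups. MAdCAM-1 is expressed on gut venules, where lymphocytes with α4β7 integrin bind it. The libraries are called IgG 1, IgG 2, MAdCAM1 1 and MAdCAM1 2. Strain, age, dose and time of treatment are not given in the sources used here. The assay, cap analysis of gene expression (CAGE), reads a short tag at each capped 5′ end it captures. Libraries held 14850923 to 16891234 tags, and levels are in CPM (tags relative to library size, scaled by TMM factors of 0.962 to 1.04), so that 1 tag was worth 0.0569 to 0.07 CPM. Epithelial genes were abundant in all libraries (Epcam at 1944 to 3184 CPM), and Ptprc, the CD45 antigen of all leukocytes, stood at 14.6 to 65 CPM.

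Macrophages of the colon wall are renewed largely by blood monocytes, engulf bacteria and dead cells, and depend on signals through the CSF1 receptor. C1q, made mostly by tissue macrophages, binds antibody complexes and dying cells and starts the classical complement pathway by activating the proteases C1r and C1s. TREM2 is a lipid-sensing receptor that signals through the adaptor TYROBP, and CD14 hands bacterial lipopolysaccharide to TLR4.

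Promoter stretches are shown for genes of the set that went up and down together, because CAGE counts the RNA ends that arise at promoters. RefSeq promoter windows of 300 bases around the start (GRCm38.p6) were used for 4 of the 7 genes, and each printed stretch matched GRCm39 at 1 place on its chromosome. No window was used for Csf1r, Adgre1 and Cd14, so the motif counts do not cover them. The stretches lie before both the RefSeq and the GENCODE start, and capitals mark matches to the PU.1 core GAGGAA or the AP-1 site TGANTCA on either strand.
Mrc1, chr2:14234031-14234150, plus strand: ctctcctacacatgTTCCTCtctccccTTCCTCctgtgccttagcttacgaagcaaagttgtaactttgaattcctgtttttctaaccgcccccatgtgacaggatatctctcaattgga
Cd68, chr11:69557068-69557187, minus strand: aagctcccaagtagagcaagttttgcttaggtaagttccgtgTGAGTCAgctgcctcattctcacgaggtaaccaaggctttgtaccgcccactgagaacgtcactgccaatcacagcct
Trem2, chr17:48653309-48653428, plus strand: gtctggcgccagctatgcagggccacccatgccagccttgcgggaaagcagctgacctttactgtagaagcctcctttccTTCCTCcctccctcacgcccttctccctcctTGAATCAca
PU.1 is the ETS factor of the macrophage lineage. Its core was found in the 300-base windows of Mrc1, Cd68 and Trem2 (3 of 4), against 28.3% of all 32851 windows. AP-1 sites were found in Cd68 and Trem2 (2 of 4), against 7.81% of all windows. The C/EBP letters TTGCNNAA were in 2 of 4 windows (10.8% of all), the ETS-IRF composite in 1 (2.72%), and the interferon-stimulated response element (3.44%), the E-box CACGTG (7.15%), the MAF site TGCTGAC (4.67%) and TATAAA (13.6%) in 0. The composite and the response element share letters, and the composite of Cd68 overlaps a PU.1 core. Lyz2, the fourth window, held none of these letters, and 4 windows are too few for more than a description.

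Macrophage genes did not separate the antibody groups. In 6 of the 7 genes both groups held 1 low and 1 high library, IgG 1 and MAdCAM1 1 being low and IgG 2 and MAdCAM1 2 high, and the group means lay close together. Cd14 was the exception, with nearly equal levels in all libraries. edgeR's quasi-likelihood test called 0 of 7 genes at an adjusted p under 0.05, beside 0% of all tested genes higher and 0% lower. Without adjustment, 0 of the 7 genes reached a p under 0.05 in the same test, against 5.09% of all genes higher and 1.82% lower. edgeR's exact test (1.06% of all genes higher, 0.0628% lower), DESeq2 (1.54% and 0.147%) and limma-voom (0% and 0%) also called 0 of the 7.

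**Figure D1:**
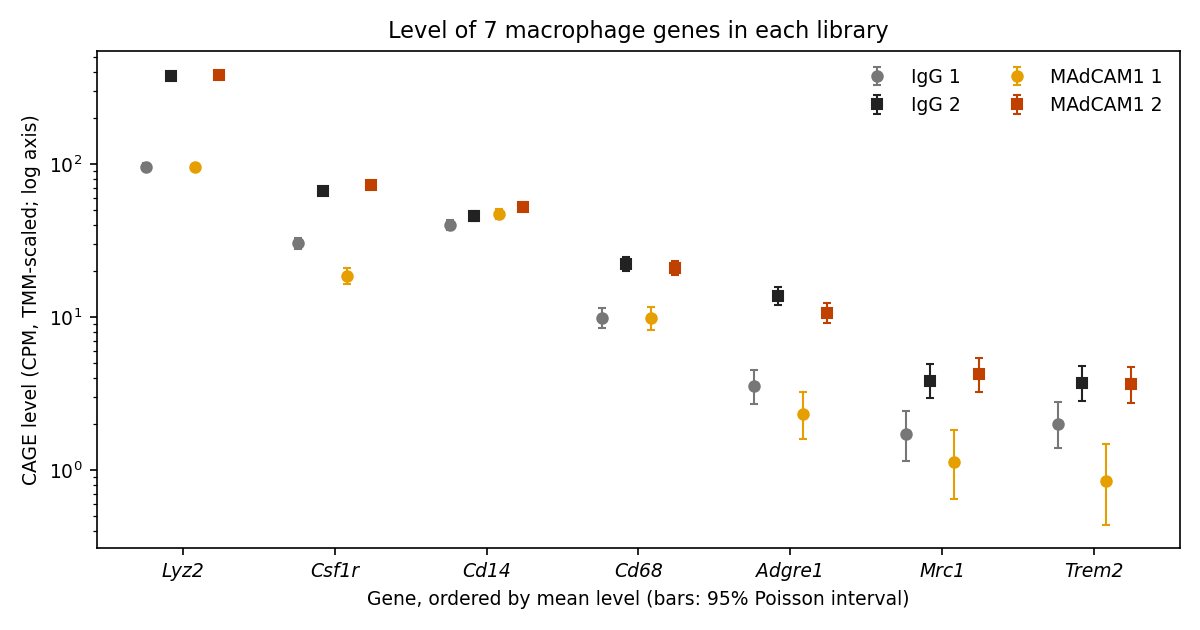
CAGE level (CPM, log axis) of the 7 macrophage genes in each of the 4 libraries, ordered by mean level, with bars for the 95% Poisson interval of the tag count. The squares (IgG 2 and MAdCAM1 2) stand above the circles (IgG 1 and MAdCAM1 1) for 6 genes, whereas the 4 values of Cd14 lie between 39.8 and 52.9 CPM.

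Csf1r encodes the receptor for CSF1 and IL-34, through which macrophages receive survival signals (chromosome 18, 61229714 to 61266535, GRCm39). Csf1r stood at 30.3 CPM in IgG 1, 66.5 in IgG 2, 18.7 in MAdCAM1 1 and 73.2 in MAdCAM1 2. Both MAdCAM1 values lay outside the IgG pair, 1 below it and 1 above it. The log2 fold change, MAdCAM1 over IgG, was −0.08 (SE 0.77, n = 2 per group; edgeR adjusted p = 0.992). Its 95% interval, not adjusted for the number of genes tested, ran from a fold change of 0.22 to 4.09. Larger changes could also go uncalled, since 0% of all tested genes passed the adjusted threshold. Mean levels were 48.4 ± 25.6 CPM in IgG and 45.9 ± 38.5 in MAdCAM1 (SD, n = 2). Annotation places Hmgxb3 on the opposite strand within the same span, and whether strand was used in counting is not given in the sources used here.

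Lyz2 encodes the lysozyme of macrophages and neutrophils (chromosome 10, 117111557 to 117118346). It had the highest level of the set at 96.6 CPM in IgG 1, 377 in IgG 2, 95.8 in MAdCAM1 1 and 384 in MAdCAM1 2. The low libraries of both groups nearly coincided, as did the high ones, and the log2 fold change was 0.02 (SE 0.95; edgeR adjusted p = 0.999). Between the libraries of a group the difference was 3.9-fold in IgG (95% exact interval of the counts 3.7 to 4.12) and 4-fold in MAdCAM1 (3.77 to 4.25). These intervals compare pairs of libraries, cover counting error only and say nothing of the treatment.

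Lyz2 has a near-identical neighbour, Lyz1, the lysozyme of Paneth cells (chromosome 10, 117123698 to 117128775). The first 30 coding bases of both genes, from GENCODE M39 transcripts, are shown. They hold the only base that differs between tags from the shared RefSeq start, given in capitals.
Lyz1: atgaagGctctcctgactctgggactcctc
Lyz2: atgaagActctcctgactctgggactcctc
Counted from the A of the start codon, the change from Lyz1 to Lyz2 is G7A. Over the 75 bases that a CAGE read spans from the shared start, the genes differ at 1 base, and over the 120 bases before that start at 9 bases. How reads that match both genes were assigned is not given in the sources used here, so both values are uncertain. Lyz1 stood at 409 CPM in IgG 1, 376 in IgG 2, 371 in MAdCAM1 1 and 512 in MAdCAM1 2, and its IgG libraries were in the reverse order of those of Lyz2. Lyz2 took 19.1% and 50.1% of the tags of both genes in the IgG libraries and 20.5% and 42.9% in the MAdCAM1 libraries. Counted as 1 gene, they had a log2 fold change of 0.11 (SE 0.40; edgeR adjusted p = 0.971).

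Adgre1 and Cd68, a surface and a lysosomal marker of macrophages, had the same low and high libraries. Adgre1 encodes the F4/80 antigen (chromosome 17, 57665573 to 57790527) and stood at 3.53 CPM in IgG 1, 13.8 in IgG 2, 2.31 in MAdCAM1 1 and 10.7 in MAdCAM1 2. Each group spanned nearly the whole range, and the log2 fold change was −0.41 (SE 1.01; edgeR adjusted p = 0.960). Cd68 encodes a glycoprotein of endosomes and lysosomes (chromosome 11, 69555037 to 69557067) and stood at 9.84 CPM in IgG 1, 22.3 in IgG 2, 9.8 in MAdCAM1 1 and 21 in MAdCAM1 2. As with Lyz2, the low values of both groups matched closely, and so did the high ones (log2 fold change −0.06, SE 0.58; edgeR adjusted p = 0.991).

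Receptors of scavenging macrophages were the lowest of the set. Mrc1, the mannose receptor CD206 (chromosome 2, 14234151 to 14336926), stood at 1.71 CPM in IgG 1, 3.83 in IgG 2, 1.12 in MAdCAM1 1 and 4.21 in MAdCAM1 2, from 16 to 65 tags. Its groups overlapped in full (log2 fold change −0.05, SE 0.82; edgeR adjusted p = 0.996). Trem2 (chromosome 17, 48653429 to 48661175) stood at 1.99 CPM in IgG 1, 3.71 in IgG 2, 0.84 in MAdCAM1 1 and 3.63 in MAdCAM1 2, from 12 to 60 tags. MAdCAM1 1 had the lowest value, and the other MAdCAM1 library lay just under IgG 2 (log2 fold change −0.35, SE 0.82; edgeR adjusted p = 0.960). With so few tags the interval of MAdCAM1 1 was wide, at 0.434 to 1.47 CPM, and the fold change of Trem2 had a 95% interval of 0.167 to 3.72.

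Cd14, the lipopolysaccharide co-receptor (chromosome 18, 36858120 to 36859851), stood at 39.8 CPM in IgG 1, 45.9 in IgG 2, 47.5 in MAdCAM1 1 and 52.9 in MAdCAM1 2. It was the only gene of the 7 whose groups did not overlap, at 1 of 7 higher against 19.7% of all tested genes higher and 18.7% lower, and scaling by library size alone made them overlap (41.4, 47.2, 45.7 and 51.4 CPM in the same order). The log2 fold change was 0.23 (SE 0.16; edgeR adjusted p = 0.834), with a 95% interval of 0.871 to 1.58 in fold, much narrower than that of the other 6 genes. Its libraries differed 1.15-fold within IgG and 1.11-fold within MAdCAM1.

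The spread between mice of a group exceeded the difference between group means for 6 of the 7 genes. On the log2 scale (prior count of 2), the absolute difference between the libraries of a group had a median of 1.13 over the 7 genes in IgG and 1.96 in MAdCAM1, against 0.29 and 0.24 over all tested genes. Between group means the median of the 7 genes was 0.23, close to the 0.21 of all genes. In IgG, 5 of the 7 genes lay above the 90th percentile of all genes (1.10), and in MAdCAM1 6 of 7 (1.06), whereas between group means 0 of 7 did (0.80). The within-group difference of Adgre1, for example, was 1.93 in IgG and 2.15 in MAdCAM1, against −0.47 between groups. Cd14 was below the median of all genes within both groups, at 0.20 and 0.15.

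**Figure D2:**
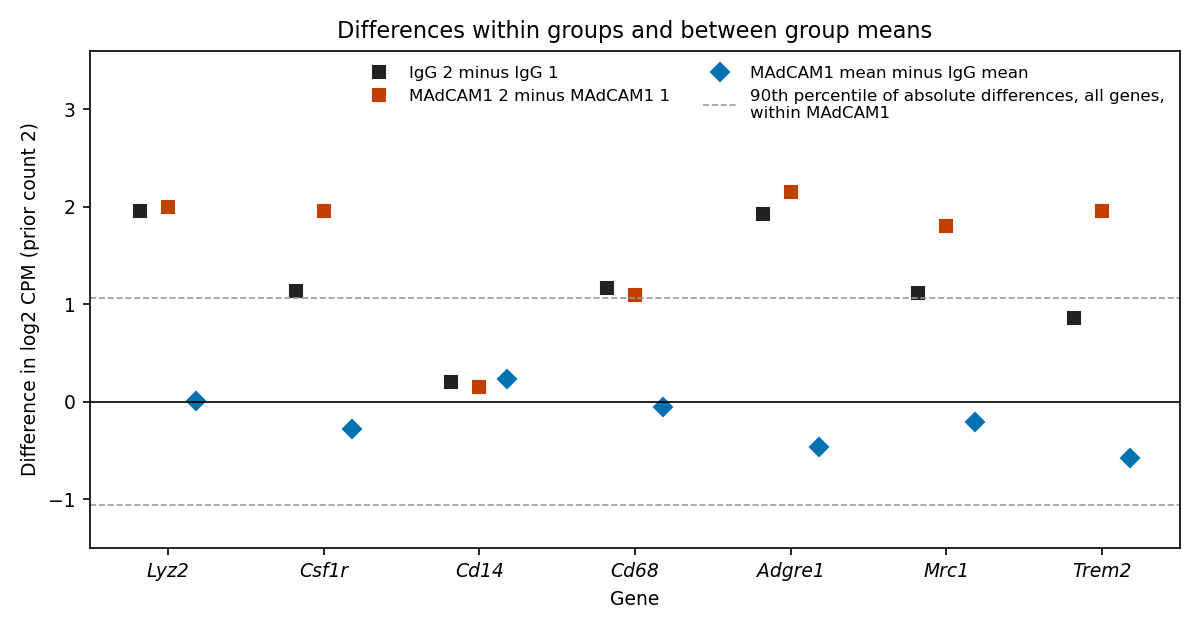
Differences in log2 CPM (prior count of 2) for each macrophage gene: IgG 2 minus IgG 1, MAdCAM1 2 minus MAdCAM1 1, and the MAdCAM1 mean minus the IgG mean; the dashed lines mark plus and minus the 90th percentile of absolute differences within MAdCAM1 over all genes (1.06). Squares for 6 genes lie at 0.86 or more, whereas the diamonds lie between −0.58 and 0.23.

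The direction of this spread was the same in both groups. The library numbered 2 was the higher one in both groups for 7 of 7 genes, as it was for 17.8% of all tested genes, and by at least 2-fold in both groups for 5 of 7 (Lyz2, Csf1r, Adgre1, Cd68 and Mrc1), against 1.72% of all genes. This count was chosen after the values were seen. The numbers only name the mice of a group and do not pair them. Genes of the set are not independent, since all are read from the same 4 libraries.

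Mrc1 and Trem2 kept a similar ratio to Csf1r while the levels of all 3 varied. CAGE gives 1 tag per captured 5′ end whatever the length of the transcript, so tag counts were compared between genes without dividing by length. For every 100 Csf1r tags there were 5.63 Mrc1 tags in IgG 1, 5.76 in IgG 2, 5.99 in MAdCAM1 1 and 5.75 in MAdCAM1 2, although the level of Mrc1 varied by 1.91 on the log2 scale. The exact binomial interval at the shallowest point, MAdCAM1 1, was 3.38 to 9.91, which limits how steady the ratio can be called. Trem2 tags numbered 6.57, 5.58, 4.49 and 4.96 per 100 in the same order, and their intervals overlapped.

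Other genes departed from this. Lyz2 had 318 tags per 100 Csf1r tags in IgG 1 (interval 289 to 352), below the 567, 513 and 525 of IgG 2, MAdCAM1 1 and MAdCAM1 2. Adgre1 had 11.6, 20.7, 12.4 and 14.6 per 100, highest in IgG 2, and Cd68 32.5, 33.6, 52.4 and 28.7, highest in MAdCAM1 1. Cd14 had 131, 69, 254 and 72.3 per 100, with more tags relative to Csf1r in IgG 1 and MAdCAM1 1 than in IgG 2 and MAdCAM1 2. These ratios need no scaling between libraries, and no test of the groups was made on them.

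**Figure D3:**
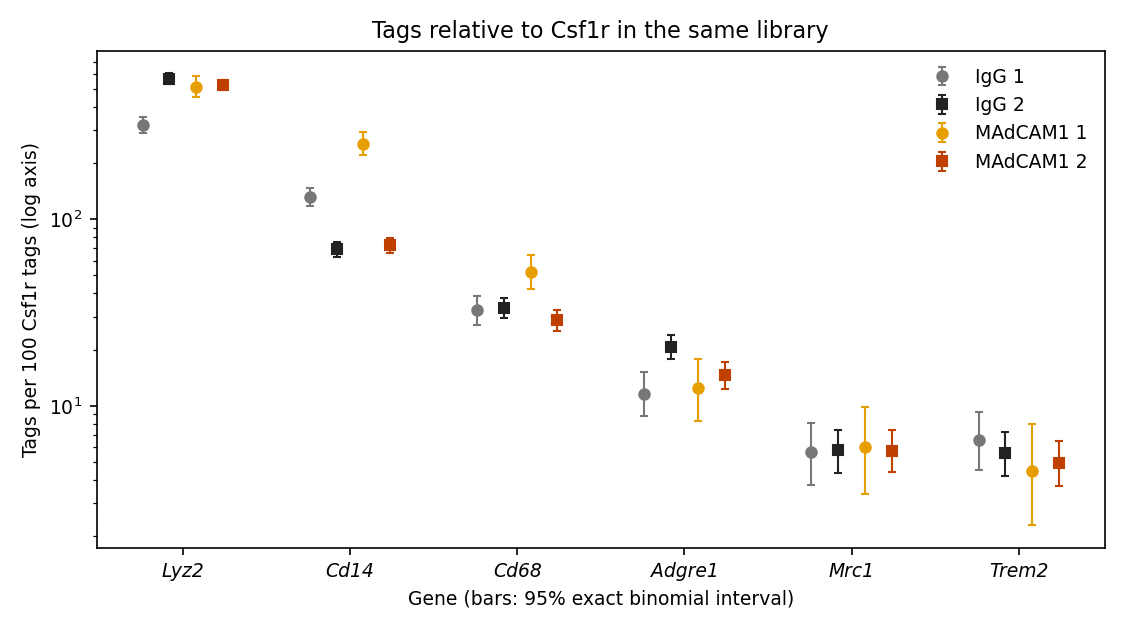
Tags of each macrophage gene per 100 Csf1r tags in the same library (log axis), with 95% exact binomial intervals for counting error. Mrc1 lies between 5.63 and 5.99 in all 4 libraries, whereas Cd14 ranges from 69 to 254.

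In order of mean level over the 4 libraries, Lyz2 (238 CPM) was followed by Csf1r (47.2), Cd14 (46.5), Cd68 (15.7), Adgre1 (7.58), Mrc1 (2.72) and Trem2 (2.54). The lowest Lyz2 value exceeded every value of the other genes, and every Cd14 value exceeded every Cd68 value. The neighbours Csf1r and Cd14, Cd68 and Adgre1, Adgre1 and Mrc1, and Mrc1 and Trem2 overlapped across libraries.

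Among 12021 genes of mean CPM at least 5, the 5 whose profile over the 4 libraries lay closest to the mean profile of the set were Gpsm3, Bcl2a1d, Scube1, Cdk14 and Cd300a. Likeness was the root mean square distance in centred log2 CPM, and these genes lay at 0.08 to 0.13, against a median of 0.75 for all genes searched. Genes of the set itself lay at 0.08 (Mrc1) to 0.65 (Cd14) from this mean, which includes the flat Cd14. Gpsm3, a regulator of G protein signalling, was at 6.49 and 13.5 CPM in IgG and 4.69 and 12.9 in MAdCAM1. Cd300a, an inhibitory receptor of myeloid cells, stood at 3.41 and 8.72 against 3.01 and 7.25 CPM. With 4 libraries, many genes can share such a profile.

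Other macrophage genes were not called either. Of 20 listed surface and identity genes 12 were tested, and the quasi-likelihood test of edgeR called 0. Of the 12, 1 was higher in both MAdCAM1 libraries and 0 were lower, against 19.7% and 18.7% of all tested genes. The higher one was Mertk, a receptor for dying cells named after its values were seen (6.37 and 6.68 CPM in IgG, 7.91 and 11.5 in MAdCAM1). The list had a median log2 fold change of 0.07, against −0.00 for all genes. In 10 of the 12, the library numbered 2 was the higher one in both groups, against 17.8% of all tested genes. The transcription factor Irf8 had 51 and 52.6 CPM in IgG and 39.9 and 89.7 in MAdCAM1, Aif1, the calcium-binding protein IBA1, at 14.6 and 42.9 against 10 and 49.5, and Sirpa, which restrains engulfment, at 22.8 and 32.3 against 13.4 and 44.7.

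In its median, the CSF1 receptor axis was flatter than its receptor, lying within −0.20 and 0.08 of the gene means in the 4 libraries. Of 12 genes 11 were tested and 0 were called, with a median log2 fold change of −0.00. In 8 of the 11, the library numbered 2 was the higher one in both groups, against 17.8% of all tested genes. Of the 11, 1 was higher in both MAdCAM1 libraries and 0 were lower, against 19.7% and 18.7% of all tested genes. The higher one, Il34, the second ligand of the receptor, had 3.93 and 2.35 CPM in IgG against 7.21 and 8.93 in MAdCAM1 (log2 fold change 1.36, SE 0.40; edgeR adjusted p = 0.691) and is named after its values were seen. Csf1, the first ligand, overlapped at 34.9 and 62 against 45.9 and 46.4 CPM. The most abundant genes of the axis were the adaptor Grb2 (208, 230, 201 and 237 CPM, IgG then MAdCAM1), the transcription factor Cebpb (58.8, 74.3, 56.7 and 61.4) and Runx1 (62.6, 40.9, 54.7 and 42.4).

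The proteases that act with C1q, and C4b, were highest in MAdCAM1 2. Of 14 classical pathway genes 5 were tested and 0 were called, with a median log2 fold change of 0.70. Groups did not overlap for 0 of the 5, against 19.7% of all tested genes higher and 18.7% lower. C1s1, the protease that cleaves C4 and C2, had 44.7 and 48.7 CPM in IgG and 15 and 137 in MAdCAM1 (log2 fold change 0.70, SE 1.02; edgeR adjusted p = 0.926). C1ra, which activates it, stood at 17.9 and 19.6 against 12.9 and 62.2 CPM, and C4b at 11.7 and 12.1 against 3.22 and 51.8. All 3 were lowest in MAdCAM1 1 and highest in MAdCAM1 2, and their values in IgG 1 and IgG 2 were nearly equal.

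Complement inhibitors and receptors were mixed. Of 8 inhibitors tested (13 listed), both MAdCAM1 libraries lay above IgG for 2 and below it for 1, near the 19.7% and 18.7% of all tested genes, and 0 were called, with a median of 0.20. Clu, which blocks the terminal pathway, had 288 and 687 CPM in IgG and 409 and 649 in MAdCAM1, Serping1, the inhibitor of C1r and C1s, at 48.1 and 69.4 against 20.4 and 124, and Cr1l, which controls C3, at 49.5 and 44 against 58 and 55.5. Of 10 complement and C1q receptor genes tested (13 listed), 7 were higher in the library numbered 2 in both groups, against 17.8% of all tested genes. Of the 10, 1 was higher and 1 lower in both MAdCAM1 libraries, 0 were called and the median was 0.05. The most abundant were Calr (337, 299, 351 and 385 CPM, IgG then MAdCAM1), C1qbp (214, 199, 198 and 160) and the engulfment receptor Lrp1 (61, 57.1, 32 and 90.8). Alternative and lectin pathway genes had 2 of 10 tested, among them Cfb, factor B, at 115 and 82.1 against 120 and 178 CPM, and Cfp, properdin, at 5.12 and 9.21 against 3.71 and 14.6, and 0 were called.

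Genes of the TREM2 pathway differed among themselves. Of 14 listed 12 were tested and 0 were called, with a median of 0.14. Of the 12, 1 was higher in both MAdCAM1 libraries and 0 were lower, against 19.7% and 18.7% of all tested genes. Apoe, a lipid carrier and TREM2 ligand, stood at 144 CPM in IgG 1, 627 in IgG 2, 91.1 in MAdCAM1 1 and 598 in MAdCAM1 2, with the same low and high libraries as Csf1r (log2 fold change −0.16, SE 1.14; edgeR adjusted p = 0.989). Tyrobp, the adaptor, named after its values were seen, had the same low and high libraries at 26.9 and 80.6 against 32.6 and 87.2 CPM. Lgals3 (1264, 432, 982 and 1223 CPM, IgG then MAdCAM1) and Cd9 (456, 290, 420 and 410), both also expressed in epithelium, were lowest in IgG 2.

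The CD14 and TLR4 pathway varied little in its median, which lay within −0.08 and 0.02 of the gene means in the 4 libraries. Of 16 genes tested (18 listed), 4 were higher and 3 lower in both MAdCAM1 libraries, against the background of 19.7% and 18.7%, and 0 were called, with a median of 0.05. These counts include Tram1, an endoplasmic reticulum translocation protein distinct from the TLR4 adaptor of that name, among the 4 higher genes. Tram1 stood at 241 and 222 against 251 and 306 CPM. Irak1 stood at 77.6 and 80.4 against 70.7 and 70.5, and shares its counts in all libraries with 2 other genes, and the adaptor Myd88 stood at 73.1 and 49.3 against 48.8 and 77.9. Of 20 lysosomal and phagocytic genes all were tested, 4 were higher and 1 lower in both, 0 were called and the median was 0.13. Lamp2 stood at 634 and 1700 against 839 and 500 CPM, the oxidase subunit Cyba at 554 and 800 against 809 and 696, and Cd63 at 340 and 456 against 515 and 563.

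**Figure D4:**
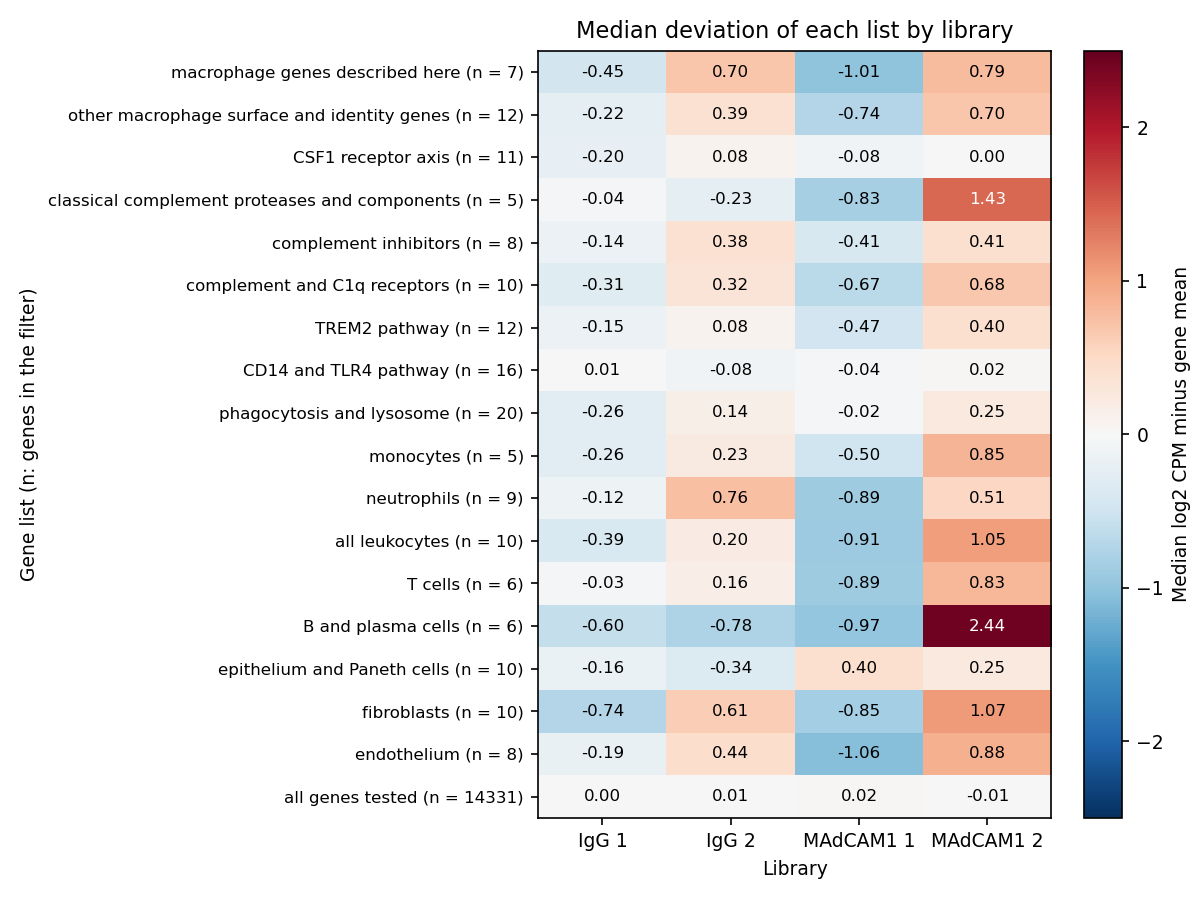
Median over the tested genes of each list of log2 CPM (prior count of 2) minus the gene's mean over the 4 libraries (columns), with the number of genes tested beside each list. The macrophage genes are at −0.45 and 0.70 in the IgG libraries and −1.01 and 0.79 in the MAdCAM1 libraries. The lists of fibroblasts, endothelium and general leukocyte markers (all leukocytes) share those signs, as do monocytes, neutrophils and T cells. Epithelium does not, nor do B and plasma cells, at −0.60 and −0.78 in IgG and −0.97 and 2.44 in MAdCAM1.

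Markers of some other cell types moved with the macrophage genes. The library numbered 2 was higher in both groups for 8 of 10 fibroblast, 7 of 8 endothelial and 9 of 10 general leukocyte markers. It was so for 6 of 9 neutrophil, 3 of 5 monocyte and 2 of 2 dendritic cell markers. For B and plasma cells it was 4 of 6, for T cells 3 of 6 and for epithelium 0 of 10, against 17.8% of all tested genes. In bulk tumour RNA, fewer cells of a type and less RNA per cell cannot be told apart. Of 10 fibroblast markers all were tested, and the summed level of the list was 449 and 1257 CPM in IgG and 459 and 1644 in MAdCAM1, beside 184 and 533 against 176 and 549 CPM for the macrophage genes. Col1a1 stood at 97.9 and 495 against 169 and 522 CPM, Col3a1, which shares its counts with another gene, at 155 and 400 against 160 and 483, and Dcn at 105 and 153 against 58.4 and 355. Of 10 endothelial markers 8 were tested, with sums of 64.4 and 95.5 against 33.4 and 143 CPM, led by Plvap (14.9, 33.6, 10.7 and 46.9), Egfl7 (19.3, 12.2, 6.44 and 32) and Pecam1 (8.59, 10.6, 4.97 and 18.7). Epithelial and Paneth markers did not share the pattern, at 6648 and 6818 against 10400 and 9047 CPM. Epcam (1944, 2049, 3184 and 2810 CPM), Krt8 (1496, 1032, 2304 and 2121) and Krt19 (1090, 844, 1831 and 1339) were among 6 of 10 epithelial genes higher in both MAdCAM1 libraries, against 19.7% of all tested genes. In the other direction there were 0, against 18.7%, and 0 were called.

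Among leukocytes, 10 general markers summed to 245 and 389 CPM in IgG and 163 and 658 in MAdCAM1, led by Cd52 (57.1, 106, 46.3 and 199), Fcer1g (31, 81.6, 28 and 93.6) and Lcp1 (37.2, 48.8, 21 and 77). Neutrophils, which also express Lyz2 and Cd14, had 9 of 12 markers tested, with sums of 371 and 624 against 334 and 942 CPM. S100a9 stood at 198 and 253 against 85.5 and 509, S100a8 at 78.8 and 244 against 104 and 212, and Ly6g at 55.9 and 36 against 126 and 188. Of the 9, 1 was higher and 4 were lower in both MAdCAM1 libraries, against 19.7% and 18.7% of all tested genes. The 4 were the granule and neutrophil genes Retnlg, Mmp8, Ngp and Camp, named after their values were seen. With markers differing in both directions, the neutrophil sums are not read as a level of neutrophils. Monocyte markers had 5 of 10 tested and sums of 966 and 611 against 1413 and 2190 CPM, nearly all from Plac8 (950, 584, 1395 and 2147), with Ace at 10 and 20 against 13.7 and 30.8. Plac8 lay far above Ptprc of all leukocytes (20.7, 29.6, 14.6 and 65 CPM). With nearly all of each sum from Plac8, the monocyte sums are not read as a level of monocytes.

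Dendritic cell markers were low at 3.36 to 13.8 CPM in sum, with 2 of 10 tested, Ccr7 (2.22, 2.47, 0.84 and 7.32) and Itgae (2.05, 2.16, 2.31 and 5.89). T cell markers had 6 of 10 tested and sums of 50.6 and 60 against 26.9 and 89.5 CPM, led by Thy1 (25.1, 33.6, 11.5 and 46.9), which fibroblasts also express, Cd3e (9.79, 9.58, 4.69 and 14.6), whose counts another gene shares, and Cd3g (7.8, 6.37, 3.78 and 12.4). B and plasma cell markers were highest in MAdCAM1 2, with sums of 21.7 and 42.7 against 48.2 and 541 CPM and Jchain (8.14, 35.4, 42.7 and 450), Cd79a (8.76, 2.23, 1.12 and 60.3) and Derl3 (1.65, 1.98, 2.1 and 10.4) in the lead. Of 6 tested, 3 were higher and 0 lower in both MAdCAM1 libraries, against 19.7% and 18.7% of all tested genes, with a median log2 fold change of 2.13. In each of these lists the quasi-likelihood test of edgeR called 0 genes. The part of stromal cells or of other leukocytes in the macrophage values was not tested.

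With each library left out in turn, the log2 fold changes of 6 genes changed sign with the library removed; the lone library of a group is then assumed to vary like those of the other group. Without IgG 2 the values were 1.31 for Lyz2, 0.60 for Csf1r, 0.88 for Adgre1, 0.64 for Cd68, 0.64 for Mrc1 and 0.17 for Trem2. Without MAdCAM1 2 they were −1.30, −1.37, −1.90, −0.71, −1.30 and −1.75 in the same order, and none of these passed the test (edgeR adjusted p = 0.999 for each of the 6). Without IgG 1 they ran from −1.09 to −0.53, and without MAdCAM1 1 from 0.30 to 0.70. Cd14 stayed between 0.12 and 0.33. The median over the 7 genes, −0.06 with all libraries, was 0.64 without IgG 2 and −1.30 without MAdCAM1 2. With 2 mice per group, an exact two-sided permutation test of 1 gene cannot give a p under 0.333.

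**Figure D5:**
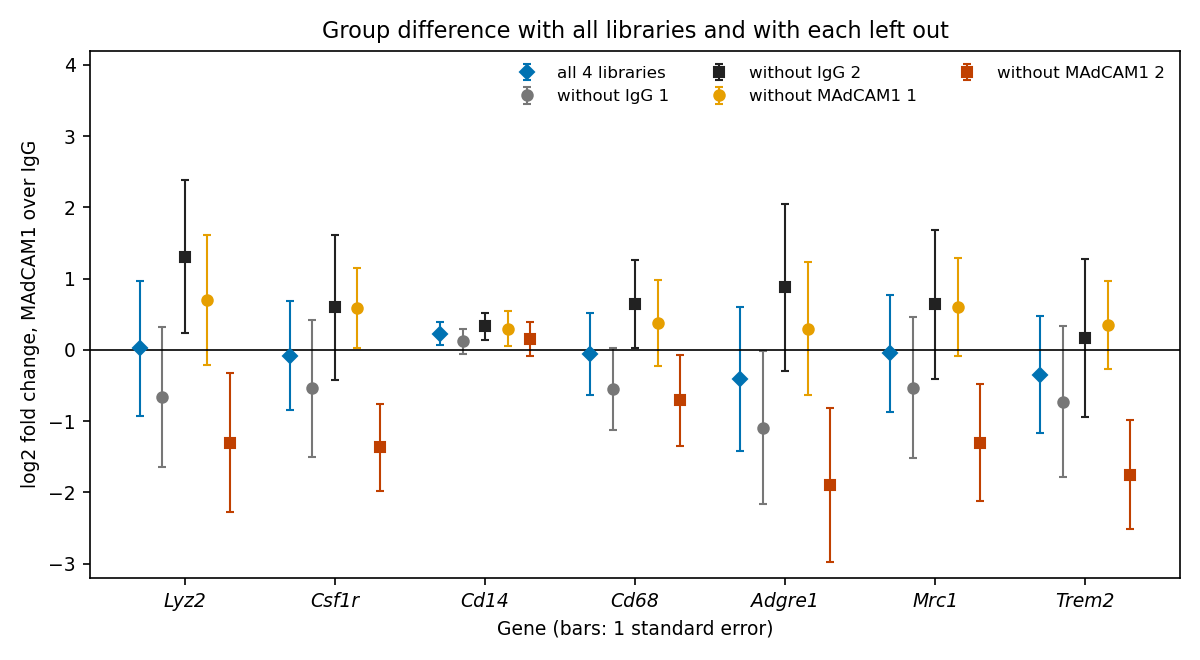
Log2 fold change, MAdCAM1 over IgG, of each macrophage gene with all 4 libraries and with each library left out, with bars of 1 standard error from edgeR. For 6 genes the value lies below 0 without IgG 1 or MAdCAM1 2 and above 0 without IgG 2 or MAdCAM1 1, and for Cd14 all values lie between 0.12 and 0.33.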

How the data were processed

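Per the labels' protocols, total RNA with an RNA integrity number above 7.0 was copied to cDNA from random primers, enriched for capped ends on streptavidin beads and sequenced as 75 nt single-end reads. Per the submitters' processing notes the tools were BWA 0.7.17, HISAT2 2.0.5, bedtools 2.12.0 and edgeR 3.22.5 on GRCm39. Per the labels, tag clusters were discarded at under 0.1 CPM, at over 200 bp or at an IDR (irreproducible discovery rate) from 0.1 up, which can remove weak starts. The authors deposited raw tag counts per gene, checked to be whole numbers. The step from clusters to genes is not given in the sources used here. No column was left out.

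All 14331 genes kept by filterByExpr were fitted in edgeR 4.0.16 (R 4.3.3) with TMM scaling and the robust quasi-likelihood F test, MAdCAM1 minus IgG, with Benjamini-Hochberg adjustment (0.05 as threshold), and the common biological coefficient of variation came to 0.322. Intervals of fold changes use the standard error and the test's degrees of freedom. Alternatives were 3 other scalings (RLE, upper quartile, library size), testing every gene, testing genes at 1 CPM or more in 2 libraries, a replicate block, each library left out, DESeq2 1.42.0, limma 3.58.1 (voom), the exact test, and dropping the antigen receptor segments. Joint counting of Lyz1 and Lyz2 and a crossed block were chosen after seeing the data. The quasi-likelihood, exact, DESeq2 and voom tests were tested on simulated counts with known fold changes. The genes and lists were chosen with earlier results of these data known. Named were all genes of the set, the 3 tested genes of each list with the highest mean CPM, and the 5 genes most like the mean of the set; others are marked where named, and 1 gene that the rule names is not reported here. Planned ratios to the C1q chains and a search for genes like them were not made. Coordinates are from GENCODE M39 on GRCm39. Each p-value sets the difference between groups against the spread between libraries of a group, estimated with information shared across genes.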

Additional observations from a re-analysis of the deposited data

How the results depend on the processing

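None of the 7 macrophage genes passed the threshold under any of the alternatives run on them, and the lowest adjusted p of any of them was 0.757. Over all genes, edgeR's exact test called 152 higher and 9 lower and DESeq2 221 higher and 21 lower, against 0 and 0 by the quasi-likelihood test, and limma-voom called 0 and 0. Of 71 gene values under alternatives that keep all libraries 68 kept their direction. The 3 that did not were Lyz2 under upper quartile scaling (−0.01), library size scaling (−0.07), which shifted the median of all genes to −0.10, and limma-voom (−0.00). With a library left out, values ran from −1.30 to 1.31 for Lyz2, −1.37 to 0.60 for Csf1r, −1.90 to 0.88 for Adgre1, −0.71 to 0.64 for Cd68, −1.30 to 0.64 for Mrc1 and −1.75 to 0.35 for Trem2, and the median of the set from −1.30 to 0.64.

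The replicate block called 0 genes higher and 0 lower and gave a median of −0.21 for the set. Labels do not pair the mice, and deviations of same-numbered libraries correlated at −0.135 across genes. A crossed block also called 0 and 0. In the bases before the start only, C/EBP letters were found in 1 window of the set rather than 2 and the ETS-IRF composite in 0 rather than 1. Depth limits Trem2 and Mrc1 most, at 12 and 16 tags in MAdCAM1 1.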
